A study of Mus musculus with 12 samples.

Results

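A set of 10 genes of adipocyte differentiation and lipid storage was followed in 2 lines of 3T3 mouse embryonic fibroblasts. The genes were chosen by name, with earlier results of these data known. All 10 have an entry among the 19439 gene entries of the deposited expression table. They are the transcription factor genes Pparg, Cebpa and Cebpd, the lipid uptake genes Fabp4, Cd36 and Lpl, the triglyceride synthesis genes Lpin1 and Dgat1, the droplet coat gene Plin2 and the lipase gene Pnpla2. Tests were made on the 11461 genes with at least 1 RPKM in 3 or more libraries, a filter that 9 of the 10 genes passed and Cd36 did not. Fabp4, Cebpa and Lpin1 passed through WT libraries only, and Lpl through p53-null libraries only.

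3T3 fibroblasts are embryonic fibroblasts that have become immortal in culture. The samples formed 4 groups of 3 libraries, 12 in all: p53 -/- cells (p53-null) without glutamine, p53-null cells in complete medium, cells with wildtype p53 (WT) without glutamine, and WT cells in complete medium. Before RNA extraction the cells spent 18 h in DMEM, a standard culture medium, with 2 mM L-glutamine (complete) or without it (glutamine-free). Each genotype is represented by 1 line, so the genotype and other properties of a line cannot be told apart. Nothing in the labels says that the 3 libraries of a group were grown as separate cultures. The p-values therefore measure the spread between libraries only, and that spread may be technical.

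Fat cells arise from fibroblast-like precursors through a cascade of transcription factors, in which C/EBPβ and C/EBPδ act early and lead to PPARγ and C/EBPα. PPARγ and C/EBPα then drive the genes of fatty acid uptake, triglyceride synthesis and storage. Other cells, fibroblasts among them, also store fatty acids as triglyceride in lipid droplets, where PLIN2 coats the droplet and the lipase ATGL starts its breakdown.

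Levels are in RPKM, reads normalised to transcript length and library size. The sum of RPKM was 284426 to 319735 per library, and 10306 to 10671 genes reached 1 RPKM. The files give no read totals. The steps between low values place the depth near 37.7 to 46.9 M reads, but whole reads within a tolerance of 0.05 came out for only 53.6 to 57.5% of low values, and no count test was run. Trp53, the gene named by the genotype, had 33.9, 34.6 and 35.2 RPKM in p53-null and 109, 112 and 114 RPKM in WT libraries in glutamine-free medium. In complete medium Trp53 had 27.9, 29.0 and 29.6 RPKM in p53-null and 58.7, 57.8 and 59.0 RPKM in WT libraries. Which exons of Trp53 were read cannot be seen from 1 value for the whole gene. Fold changes below are ratios of mean RPKM. Log2 changes are differences of mean log2(RPKM + 1), given with the standard error (SE) and the limma p-value adjusted over the 11461 genes. For genes near or under 1 RPKM this scale gives smaller changes than the ratio of means.

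The promoters of 6 of the 10 genes, with 8 start sites, were found in the RefSeq promoter table of build GRCm38.p6, which reaches from 250 bases before to 50 bases after each start. The 3 sequences shown belong to genes that moved the same way in both lines when glutamine was withdrawn. Pparg is shown at chr6:115421816-115422115 (plus strand), the farthest downstream of its 3 listed start sites. Plin2 is shown at chr4:86670010-86670309 (minus strand) and Pnpla2 at chr7:141454938-141455237 (plus strand). Capitals mark every match, on either strand, to the 6 motifs searched, which were CCAAT (the box bound by NF-Y), TATAAA (the TATA box), GGGCGG (the box bound by SP1), TGATGNAA (the core of the C/EBP-ATF element), TTGCNNAA (a C/EBP motif) and DR1 (a direct repeat with a spacer of 1 base, bound by PPAR-RXR).

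Pparg: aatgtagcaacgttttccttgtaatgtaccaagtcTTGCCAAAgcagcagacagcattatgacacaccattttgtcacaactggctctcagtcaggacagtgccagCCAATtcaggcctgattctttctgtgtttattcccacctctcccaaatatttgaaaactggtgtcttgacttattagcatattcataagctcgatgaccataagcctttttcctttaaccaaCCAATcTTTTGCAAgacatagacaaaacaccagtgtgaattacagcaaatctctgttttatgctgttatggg
Plin2: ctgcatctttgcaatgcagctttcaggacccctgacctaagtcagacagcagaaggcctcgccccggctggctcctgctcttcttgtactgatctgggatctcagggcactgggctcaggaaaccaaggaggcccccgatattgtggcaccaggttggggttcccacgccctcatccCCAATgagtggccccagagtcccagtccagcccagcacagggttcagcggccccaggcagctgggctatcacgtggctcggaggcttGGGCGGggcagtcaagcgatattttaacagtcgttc
Pnpla2: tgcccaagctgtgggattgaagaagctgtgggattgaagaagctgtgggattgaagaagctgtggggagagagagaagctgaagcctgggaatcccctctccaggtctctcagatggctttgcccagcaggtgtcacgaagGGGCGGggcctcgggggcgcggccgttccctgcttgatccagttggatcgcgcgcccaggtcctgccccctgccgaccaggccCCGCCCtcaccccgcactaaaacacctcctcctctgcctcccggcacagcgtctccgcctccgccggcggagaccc

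Positions count the first transcribed base as 1 and give the first letter of a match as printed. The Pparg sequence held TTGCNNAA at -215 and, on the opposite strand, at -16, and CCAAT at -144 and -22, with no overlap between matches. The promoters of the other listed Pparg start sites had no TTGCNNAA match. Which start was used cannot be seen from 1 value for the whole gene. TTGCNNAA was found in 10.8% of the 32851 promoters of the table and CCAAT in 37.4%. Plin2 held CCAAT at -73 and GGGCGG at 15, and Pnpla2 held GGGCGG at -109 and, on the opposite strand, at -26. GGGCGG was found in 35.7% of all promoters. Of the other 3 motifs, TATAAA (13.6% of all promoters), TGATGNAA (3.97%) and DR1 (0.0396%) had no match in these 3 sequences, while TATAAA matched in the Cebpa promoter at -30 and, on the opposite strand, in another Pparg promoter at -29. A match describes letters only, and binding was not measured.

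Without glutamine, Plin2, Pnpla2 and Lpl were higher in p53-null cells by 1.18- to 1.68-fold, and Pparg, Cebpd and Dgat1 were lower. In WT cells Fabp4, Cebpd and Lpin1 were lower by 5.09- to 30.2-fold and Pparg by 1.57-fold, while Plin2, Pnpla2, Cebpa and Dgat1 were higher by 1.19- to 1.87-fold. Of the 9 tested genes 3 rose and 3 fell in p53-null cells, where 82.0% of all tested genes were called, 50.0% higher and 32.0% lower (5732 and 3671 genes, and 4525 and 4984 with median centring). In WT cells 4 rose and 4 fell, where 90.1% were called, 46.0% higher and 44.0% lower. The count in WT cells is near the share among all genes and that in p53-null cells below it, so the counts are no result about the 10 genes. In bulk RNA, fewer cells of a type and less RNA per cell cannot be told apart.

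**Figure D1:**
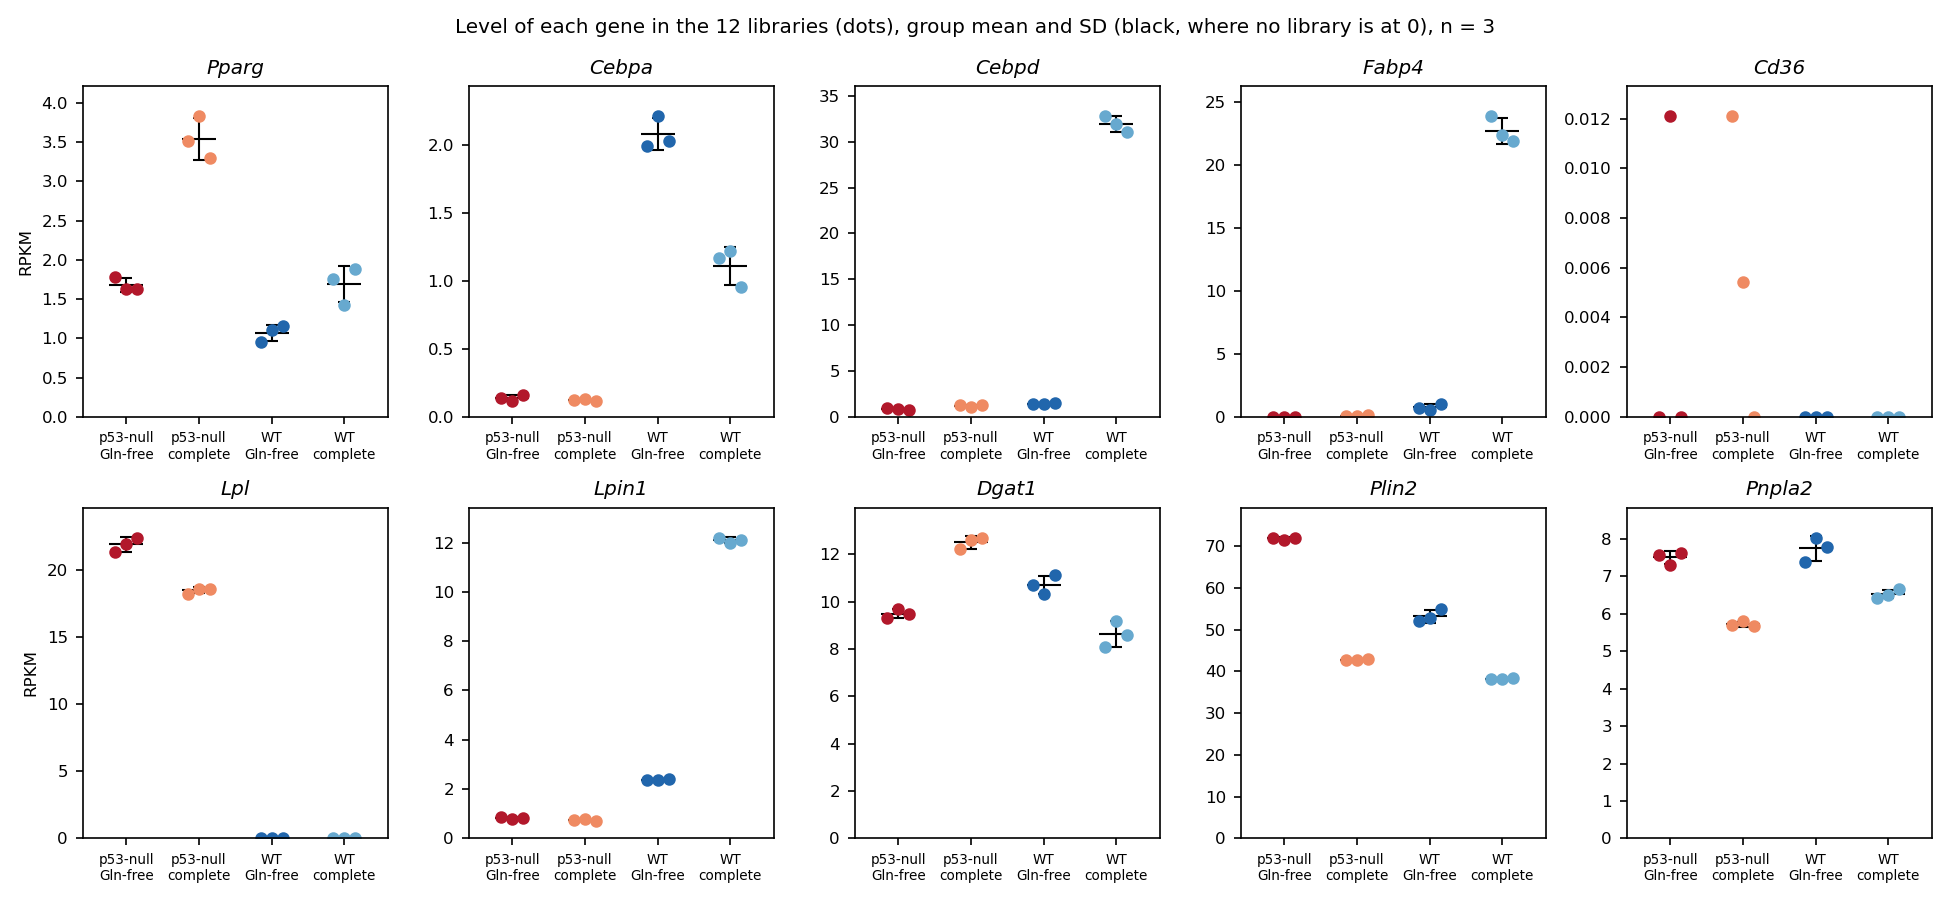
Level of each of the 10 genes in RPKM (vertical axis, linear, from 0, with its own range in each panel) in the 12 libraries, by group. Dots are libraries, and black marks are the mean and SD of 3 libraries, left out where a library was listed at 0. Cebpd, Fabp4 and Lpin1 were highest in WT cells in complete medium, Lpl was near 0 in both WT groups, and Plin2 was highest in p53-null cells without glutamine.

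Pparg encodes PPARγ, the nuclear receptor that adipocyte formation requires. The gene (ENSMUSG00000000440.12) lies on chromosome 6 at 115360951 to 115490399, plus strand, in GENCODE M21 coordinates of GRCm38, the assembly that mm10 names. It had 1.78, 1.63 and 1.63 RPKM in p53-null cells without glutamine, against 3.51, 3.83 and 3.29 RPKM in p53-null cells with glutamine. WT cells had 0.959, 1.1 and 1.16 RPKM without glutamine, against 1.75, 1.43 and 1.88 RPKM in complete medium. The low group lay below the high group without overlap in each line. Pparg was 2.11-fold lower without glutamine in p53-null cells (log2 change -0.76 ± 0.064, SE, adjusted p = 1.3e-07). In WT cells the log2 change was -0.37 ± 0.064 (adjusted p = 9.8e-05, 1.57-fold lower), and with quantile normalization it was -0.12 (adjusted p = 0.078). Pparg was higher in the p53-null line in both media, by a log2 difference of 0.37 ± 0.064 without glutamine (adjusted p = 1.1e-04) and of 0.76 ± 0.064 in complete medium (adjusted p = 8.6e-08). All of these levels are low, since Ppard, which encodes the related receptor PPARδ, ranged over 11.1 to 11.2 RPKM in glutamine-free and 9.79 to 10.2 RPKM in complete medium in p53-null cells.

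Cebpd encodes C/EBPδ, an early factor of adipocyte differentiation that also responds to inflammatory signals. It had 1.45, 1.38 and 1.53 RPKM in WT cells without glutamine, against 32.8, 31.9 and 31.1 RPKM in WT cells in complete medium. The 3 libraries of WT cells in complete medium stood far above the other 9. Cebpd fell 22.0-fold (log2 change -3.75 ± 0.046, adjusted p = 2.7e-16). In p53-null cells Cebpd had 0.967, 0.829 and 0.763 RPKM without glutamine, against 1.29, 1.1 and 1.26 RPKM in complete medium. This fall was smaller, with a log2 change of -0.26 ± 0.046 (adjusted p = 1.9e-04) and no overlap between the groups. The difference of the responses, p53-null minus WT, was 3.49 ± 0.065 on the log2 scale (adjusted p = 6.7e-14). In complete medium Cebpd was 26.3-fold lower in the p53-null than in the WT line, a log2 difference of -3.89 ± 0.046 (adjusted p = 1.9e-16), and in glutamine-free medium 1.70-fold lower.

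The Cebpd gene (ENSMUSG00000071637.5, chromosome 16, 15887286 to 15891031, plus strand) has 15% of its exon bases under exons of Spidr on the other strand, and strand was not kept by the kit used. Spidr averaged 9.12 ± 0.108 RPKM in WT cells without glutamine and 16.6 ± 0.585 RPKM in WT cells in complete medium. In p53-null cells Spidr averaged 9.55 ± 0.293 RPKM without glutamine and 9.97 ± 0.294 RPKM in complete medium (SD, n = 3 each). Spidr was thus highest in the group in which Cebpd was highest. The part of Spidr in the Cebpd values was not tested.

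Cebpa encodes C/EBPα, which acts later in the cascade and keeps PPARγ expressed. It had 1.99, 2.21 and 2.03 RPKM in WT cells without glutamine, against 1.17, 1.22 and 0.954 RPKM in WT cells in complete medium. The groups did not overlap, and Cebpa rose 1.87-fold, a log2 change of 0.54 ± 0.047 (adjusted p = 1.1e-07). This was opposite in direction to Cebpd and Pparg in the same libraries. Cebpa would not have passed the filter without the WT libraries in glutamine-free medium, so its rise follows in part from the filter. In p53-null cells Cebpa stayed at 0.117 to 0.159 RPKM without glutamine and 0.113 to 0.129 RPKM in complete medium, groups that overlapped, with a log2 change of 0.02 ± 0.047 (adjusted p = 0.74). The p53-null line was 15.2-fold lower than the WT line in glutamine-free medium (log2 difference -1.44 ± 0.047, adjusted p = 3.9e-12) and 9.05-fold lower in complete medium (log2 difference -0.91 ± 0.047, adjusted p = 4.6e-10). These differences between the lines also follow in part from the filter, which Cebpa passed through WT libraries only. Cebpa (ENSMUSG00000034957.10) lies on chromosome 7 at 35119293 to 35121928, plus strand.

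Fabp4 encodes the fatty acid binding protein of adipocytes, also called aP2, a target of PPARγ and C/EBPα that macrophages and capillary endothelium express too. It had 0.662, 0.560 and 1.03 RPKM in WT cells without glutamine, against 23.9, 22.4 and 21.9 RPKM in WT cells in complete medium. The level without glutamine was 30.2-fold lower, a log2 change of -3.77 ± 0.075 (adjusted p = 2.3e-14), and -4.78 with a pseudocount of 0.1 RPKM. Fabp4 would not have passed the filter without the WT libraries in complete medium, so this fall follows in part from the filter. In p53-null cells Fabp4 was listed at 0 in all 3 libraries without glutamine, against 0.0741, 0.0998 and 0.117 RPKM in complete medium. That log2 change, -0.13 ± 0.075, was not called (adjusted p = 0.12). It was called with a pseudocount of 0.1 (-0.97, adjusted p = 9.1e-05), with median centring (-0.24, adjusted p = 0.0080), in a fit of the p53-null libraries alone (-0.13, adjusted p = 9.1e-04) and without WT glutamine-free replicate 3 (-0.13, adjusted p = 0.0077), the library with 1.03 RPKM.

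In complete medium Fabp4 was 234-fold lower in the p53-null than in the WT line, a log2 difference of -4.43 ± 0.075 (adjusted p = 5.0e-15). In glutamine-free medium the log2 difference was -0.80 ± 0.075 (adjusted p = 2.7e-07), and -3.05 with a pseudocount of 0.1, so its size depends on the pseudocount. No fold is given because the p53-null libraries were listed at 0. Since Fabp4 passed the filter through WT libraries only, its differences between the lines follow in part from the filter. The order of the 4 group levels of Fabp4, WT complete, WT glutamine-free, p53-null complete and p53-null glutamine-free from high to low, was also that of Cebpd, with no overlap between neighbours for either gene. Fabp4 and Cebpd differ in what follows the WT complete group, since Fabp4 was under 0.12 RPKM in the p53-null line while Cebpd kept 0.763 to 1.29 RPKM. Fabp4 (ENSMUSG00000062515.3) lies on chromosome 3 at 10204088 to 10208576, minus strand.

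Markers of endothelium and macrophages, which can express Fabp4, were summed in the same libraries. The summed level of the 7 endothelial markers found was 1.55 to 1.72 RPKM in p53-null cells without glutamine and 1.78 to 1.91 RPKM in p53-null cells with glutamine. It was 0.627 to 0.694 RPKM in WT cells without glutamine and 0.0731 to 0.150 RPKM in WT cells in complete medium, the group with the most Fabp4. Kdr, a receptor gene of endothelium and the only one of the 7 to pass the filter, averaged 1.26 and 1.25 RPKM in p53-null cells without and with glutamine, against 0.0155 and 0.0106 RPKM in the matching WT groups. Pecam1 and Cdh5 averaged at most 0.0585 and 0.00981 RPKM in any group. The macrophage sum was 0.790 to 0.920 RPKM in WT cells without glutamine and 1.05 to 1.72 RPKM in WT cells in complete medium. Cd68, the macrophage marker that passed the filter, averaged 0.823 RPKM in WT cells without glutamine and 1.23 RPKM in complete medium. This low level fell with Fabp4 (log2 change -0.28 ± 0.087, adjusted p = 0.0082), a call lost with quantile normalization (-0.02, adjusted p = 0.85). The part of these markers in the Fabp4 result was not tested.

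Lpl encodes lipoprotein lipase, which frees fatty acids from circulating triglyceride. It had 21.3, 21.9 and 22.4 RPKM in p53-null cells without glutamine, against 18.2, 18.6 and 18.6 RPKM in p53-null cells with glutamine. The WT libraries had 0.00655, 0 and 0 RPKM without glutamine and 0, 0.0300 and 0.0121 RPKM in complete medium, at or near 0 in all 6. Lpl rose 1.18-fold in p53-null cells, a log2 change of 0.23 ± 0.027 (adjusted p = 4.5e-06), and did not pass in WT cells (-0.02 ± 0.027, adjusted p = 0.57). The p53-null minus WT log2 difference was 4.51 ± 0.027 in glutamine-free medium (adjusted p = 5.9e-19) and 4.26 ± 0.027 in complete medium (adjusted p = 1.0e-18), opposite in sign to those of Fabp4, Cebpa, Cebpd and Lpin1. With a pseudocount of 0.1 these differences were 7.75 and 7.36, and no fold is given because WT libraries were listed at 0. Lpl passed the filter through p53-null libraries only, so these differences between the lines follow in part from the filter. Lpl (ENSMUSG00000015568.16) lies on chromosome 8 at 68880491 to 68907448, plus strand.

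Macrophages express Lpl as well. The summed level of the 8 macrophage markers found was 2.07 to 2.47 RPKM in p53-null cells without glutamine and 6.89 to 7.73 RPKM in p53-null cells with glutamine, against 0.790 to 0.920 and 1.05 to 1.72 RPKM in the matching WT groups. Nearly all of it was Cd68, at 7.06 ± 0.382 RPKM in p53-null cells with glutamine. Ptprc and Csf1r, which define blood cells and macrophages, averaged at most 0.00261 and 0.141 RPKM in any group. Like Lpl, Cd68 was higher in the p53-null than in the WT line in both media. The part of these markers in the Lpl result was not tested.

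Cd36, the fatty acid translocase gene and a textbook PPARγ target, was listed at 0 in all 6 WT libraries. In the p53-null line it had 0, 0.0121 and 0 RPKM without glutamine and 0.0121, 0.00543 and 0 RPKM in complete medium. The groups overlapped, and without the filter on low values the adjusted p was 0.78 for withdrawal in p53-null cells and 1 in WT cells. Cd36 (ENSMUSG00000002944.15) lies on chromosome 5 at 17781690 to 17888801, minus strand.

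Lpin1 encodes lipin 1, the phosphatidate phosphatase that makes diacylglycerol and also acts in the nucleus with PPAR coactivators. It had 2.37, 2.37 and 2.39 RPKM in WT cells without glutamine, against 12.2, 12 and 12.1 RPKM in WT cells in complete medium. All 3 libraries without glutamine lay below all 3 with it, and Lpin1 fell 5.09-fold, a log2 change of -1.95 ± 0.030 (adjusted p = 2.0e-15). In p53-null cells the level was under 1 RPKM in all 6 libraries, at 0.869, 0.768 and 0.841 RPKM without glutamine and 0.755, 0.790 and 0.718 RPKM in complete medium. These groups overlapped, and the log2 change of 0.06 ± 0.030 was not called (adjusted p = 0.093). It was called with quantile normalization (0.14, adjusted p = 6.8e-04), rescaling to one sum (0.07, adjusted p = 0.048), no variance trend (0.06, adjusted p = 0.039) and without p53-null glutamine-free replicate 2 (0.08, adjusted p = 0.033), and it turned to -0.05 with median centring. The p53-null line was 2.88-fold lower than the WT line in glutamine-free medium and 16-fold lower in complete medium (log2 differences -0.89 ± 0.030 and -2.90 ± 0.030, adjusted p = 5.8e-12 and 5.2e-17). Because Lpin1 passed the filter through WT libraries only, these differences between the lines follow in part from the filter. Lpin1 (ENSMUSG00000020593.15) lies on chromosome 12 at 16535669 to 16610966, minus strand.

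Dgat1 encodes an acyltransferase of the last step of triglyceride synthesis. It had 9.29, 9.67 and 9.49 RPKM in p53-null cells without glutamine, against 12.2, 12.6 and 12.7 RPKM in p53-null cells with glutamine. WT cells had 10.7, 10.3 and 11.1 RPKM without glutamine, against 8.09, 9.18 and 8.57 RPKM in complete medium. Dgat1 was the only tested gene of the 9 called in both lines in opposite directions. It fell in p53-null cells (log2 change -0.36 ± 0.038, adjusted p = 1.3e-06) and rose in WT cells (0.29 ± 0.038, adjusted p = 9.8e-06), with no overlap between groups in either line. The difference of the responses was -0.65 ± 0.054 (adjusted p = 1.1e-07). Between the lines Dgat1 was 1.45-fold higher in p53-null than in WT cells in complete medium (log2 difference 0.49 ± 0.038, adjusted p = 3.7e-08). In glutamine-free medium it was 1.13-fold lower (-0.16 ± 0.038, adjusted p = 0.0015), a call that was lost with libraries rescaled to one sum (-0.02, adjusted p = 0.57). Dgat1 (ENSMUSG00000022555.12) lies on chromosome 15 at 76502015 to 76511953, minus strand.

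Plin2 encodes perilipin 2, the droplet coat protein of most cell types, and was the most abundant of the 10 genes in every group. It had 72.1, 71.6 and 72.0 RPKM in p53-null cells without glutamine, against 42.7, 42.7 and 43.0 RPKM in p53-null cells with glutamine. WT cells had 52.0, 52.7 and 54.9 RPKM without glutamine, against 38.1, 38.3 and 38.4 RPKM in complete medium. No 2 of the 4 groups overlapped. Plin2 rose 1.68-fold in p53-null cells (log2 change 0.73 ± 0.017, adjusted p = 9.5e-13) and 1.39-fold in WT cells (0.46 ± 0.017, adjusted p = 1.4e-11). The rise was larger in the p53-null line, with a difference of 0.27 ± 0.024 (adjusted p = 2.7e-07). Plin2 was higher in the p53-null line, 1.35-fold in glutamine-free and 1.12-fold in complete medium (log2 differences 0.43 ± 0.017 and 0.16 ± 0.017, adjusted p = 3.8e-11 and 1.5e-06). Plin2 (ENSMUSG00000028494.12) lies on chromosome 4 at 86648386 to 86670060, minus strand.

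Pnpla2 encodes adipose triglyceride lipase (ATGL), which removes the first fatty acid from stored triglyceride. It had 7.58, 7.31 and 7.64 RPKM in p53-null cells without glutamine, against 5.69, 5.80 and 5.67 RPKM in p53-null cells with glutamine. WT cells had 7.40, 8.04 and 7.80 RPKM without glutamine, against 6.43, 6.51 and 6.66 RPKM in complete medium. Pnpla2 rose 1.31-fold in p53-null cells (log2 change 0.34 ± 0.030, adjusted p = 2.2e-07) and 1.19-fold in WT cells (0.21 ± 0.030, adjusted p = 1.5e-05), without overlap in either line. The difference of these responses, 0.13 ± 0.042 (adjusted p = 0.015), was 0.02 and not called with quantile normalization (adjusted p = 0.68) or median centring (adjusted p = 0.60). The lines overlapped in glutamine-free medium (-0.04 ± 0.030, adjusted p = 0.22). There the scaling set both sign and call, with 0.09 for libraries rescaled to one sum (adjusted p = 0.0087), -0.20 with quantile normalization (adjusted p = 2.8e-05) and -0.18 with median centring (adjusted p = 1.1e-04). In complete medium the p53-null line was 1.14-fold lower (-0.16 ± 0.030, adjusted p = 1.6e-04). Pnpla2 (ENSMUSG00000025509.15) lies on chromosome 7 at 141455198 to 141460743, plus strand.

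**Figure D2:**
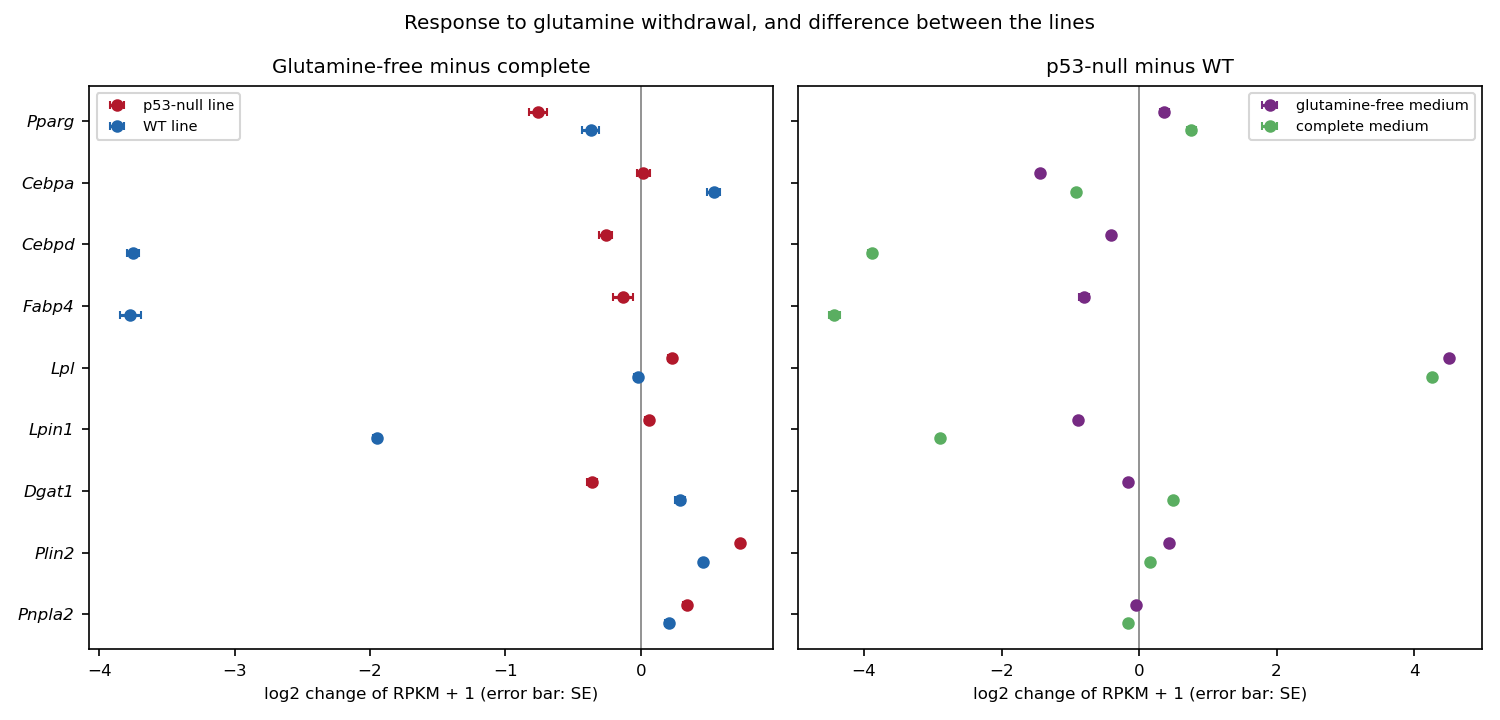
Log2 change of RPKM + 1 with its SE for the 9 tested genes. The left panel gives glutamine-free minus complete medium in the p53-null line and the WT line, and the right panel gives p53-null minus WT in glutamine-free and in complete medium. Cebpd, Fabp4 and Lpin1 have WT responses of -3.75, -3.77 and -1.95 with p53-null responses between -0.26 and 0.06, and Lpl stands at 4.51 and 4.26 between the lines.

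Part of the set thus followed 2 patterns in these libraries, and the other genes followed neither. Fabp4, Cebpd and Lpin1 were highest in WT cells in complete medium, and called falls of 1 or more on the log2(RPKM + 1) scale were found for these 3 in WT cells, where 12.9% of all tested genes had such a fall. Of these, Fabp4 passed the filter only with the WT libraries in complete medium. Plin2 and Pnpla2 rose in both lines, in each by less than 2-fold. Of the others, Pparg fell in both lines and Dgat1 moved in opposite directions. Cebpa was called in WT cells only and Lpl in p53-null cells only, both higher. In p53-null cells none of the 9 tested genes had a called change of 1 or more on the log2(RPKM + 1) scale in either direction, although Pparg was 2.11-fold lower as a ratio of means (-1.03 with a pseudocount of 0.1). Of all tested genes, 1.27% rose and 2.03% fell by that much on this scale. In WT cells 9.75% of all tested genes rose by that much, and none of the 9 did. The median log2 change of the 9 genes was 0.02 in p53-null cells and -0.02 in WT cells, beside 0.08 and 0.01 for all tested genes. The median absolute log2 change was 0.26 and 0.46, beside 0.27 and 0.51 for all tested genes.

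Between the lines, 3 of the 9 genes were higher and 5 lower in p53-null cells in glutamine-free medium, where 91.4% of all tested genes were called, 51.4% higher and 40.0% lower. That balance of 5890 higher and 4584 lower genes was 5002 and 5397 with median centring, and 6661 and 3813 with libraries rescaled to one sum. In complete medium 4 were higher and 5 lower, where 90.9% were called, 48.4% higher and 42.5% lower. At 1 or more on the log2(RPKM + 1) scale, Lpl was higher and Cebpa lower in glutamine-free medium (Fabp4 and Lpin1 too with a pseudocount of 0.1, at -3.05 and -1.42), where 10.7% of all tested genes were higher and 7.88% lower by that much. In complete medium Lpl was higher and Fabp4, Cebpd and Lpin1 were lower, where 9.14% were higher and 10.9% lower. With a pseudocount of 0.1 Pparg was higher by that much too in complete medium, at 1.03, and Cebpa lower, at -2.44. Fabp4, Cebpa, Lpin1 and Lpl passed the filter only through the line in which they were high, so their difference between the lines follows in part from the filter. Fabp4 needed the WT libraries in complete medium to pass, and Cebpa those without glutamine. The responses of Fabp4 and Cebpa in WT cells, and their differences of responses, thus also follow in part from the filter. All 9 differed between the lines in their response to withdrawal, 6 with a positive and 3 with a negative difference, where 84.9% of all tested genes were called, 46.4% positive and 38.4% negative (5323 and 4404 genes, and 4611 and 5130 with quantile normalization). A difference of 1 or more on that scale was found for Fabp4, Cebpd and Lpin1, all positive, where 9.98% of all tested genes had a positive and 5.58% a negative one. Glutamine-free and complete libraries did not overlap for 7 of the 9 genes in p53-null cells (84.0% of all tested genes) and for 8 in WT cells (90.0%). The p53-null and WT libraries did not overlap for 8 of the 9 in glutamine-free medium (91.4%) and for all 9 in complete medium (91.2%). For each of these pairs without overlap the exact permutation test, two-sided, gave p = 0.1, the smallest that 3 libraries on either side allow.

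Most of the 10 genes have relatives with related functions. RPKM is per length, so levels are set side by side, but the gene lengths used are not given. Levels and shares between genes depend on those lengths. Cebpb, which encodes the third C/EBP of the cascade, averaged 41.5 ± 1.08 RPKM in p53-null cells without glutamine and 30.8 ± 1.55 RPKM in complete medium. In WT cells it averaged 102 ± 5.03 RPKM without glutamine and 78.1 ± 0.914 RPKM in complete medium (SD, n = 3 each). Cebpb rose in both lines (log2 change 0.42 ± 0.038 in p53-null and 0.37 ± 0.038 in WT cells, adjusted p = 3.0e-07 and 5.8e-07), while Cebpd fell in both. The summed RPKM of Cebpa, Cebpb and Cebpd was 105 ± 5.11 in WT cells without glutamine and 111 ± 1.34 in complete medium. The share of Cebpa and Cebpd in that sum was 3.36% without glutamine and 29.7% in complete medium.

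Fabp5, another fatty acid binding protein gene, averaged 25.9 ± 1.27 RPKM in p53-null cells without glutamine and 30.3 ± 0.857 RPKM with it, and 64.5 ± 3.36 and 117 ± 1.69 RPKM in the matching WT groups. Fabp5 fell in both lines (log2 change -0.22 ± 0.038 in p53-null and -0.85 ± 0.038 in WT cells, adjusted p = 1.4e-04 and 1.1e-10), less than Fabp4 in WT cells. Fabp4 held 1.13% of the summed RPKM of Fabp3, Fabp4 and Fabp5 in WT cells without glutamine and 16.2% in complete medium.

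Dgat2, which catalyses the same step as Dgat1 through an unrelated protein, averaged 5.39 ± 0.459 RPKM in p53-null cells without glutamine and 2.67 ± 0.0713 RPKM in complete medium. In WT cells it averaged 17.0 ± 1.35 RPKM without glutamine and 2.30 ± 0.134 RPKM in complete medium. Dgat2 rose by a log2 change of 0.80 ± 0.059 in p53-null and 2.45 ± 0.059 in WT cells (adjusted p = 3.5e-08 and 1.4e-13). Dgat1 held 63.8% of the summed RPKM of both genes in p53-null cells without glutamine and 82.4% in complete medium. In WT cells it held 38.7% without glutamine and 78.9% in complete medium. The sum of both was 14.9 ± 0.553 RPKM and 15.1 ± 0.228 RPKM in those p53-null groups, and 27.7 ± 1.49 and 10.9 ± 0.415 RPKM in those WT groups.

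Lpin2, whose product has the same phosphatase activity as lipin 1, averaged 11.7 ± 0.161 RPKM in p53-null cells without glutamine and 13.3 ± 0.308 RPKM in complete medium. In WT cells it averaged 4.49 ± 0.0940 RPKM without glutamine and 8.77 ± 0.215 RPKM in complete medium, and fell by a log2 change of -0.83 ± 0.025 (adjusted p = 1.8e-12). Lpin1 held 5.20 to 6.37% of the summed RPKM of the 3 lipin genes in the p53-null groups, as group means. It held 33.5% in WT cells without glutamine and 57.0% in complete medium. Plin3, another droplet coat gene, fell where Plin2 rose, with 38.4 ± 0.626 RPKM in p53-null cells without glutamine and 71.6 ± 0.891 RPKM in complete medium. In WT cells Plin3 averaged 13 ± 0.389 RPKM without glutamine and 40.7 ± 0.101 RPKM in complete medium (log2 changes -0.88 ± 0.020 in p53-null and -1.58 ± 0.020 in WT cells, adjusted p = 8.0e-13 and 4.1e-16). Plin2 thus held 64.9% of the summed RPKM of Plin2, Plin3 and Plin4 in p53-null cells without glutamine and 36.3% in complete medium, and 79.6 to 80.3% and 48.0 to 48.2% per library in the matching WT groups. Plin4, a coat protein gene of adipocytes, fell by a log2 change of -1.73 ± 0.043 in p53-null cells (adjusted p = 1.5e-12).

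**Figure D3:**
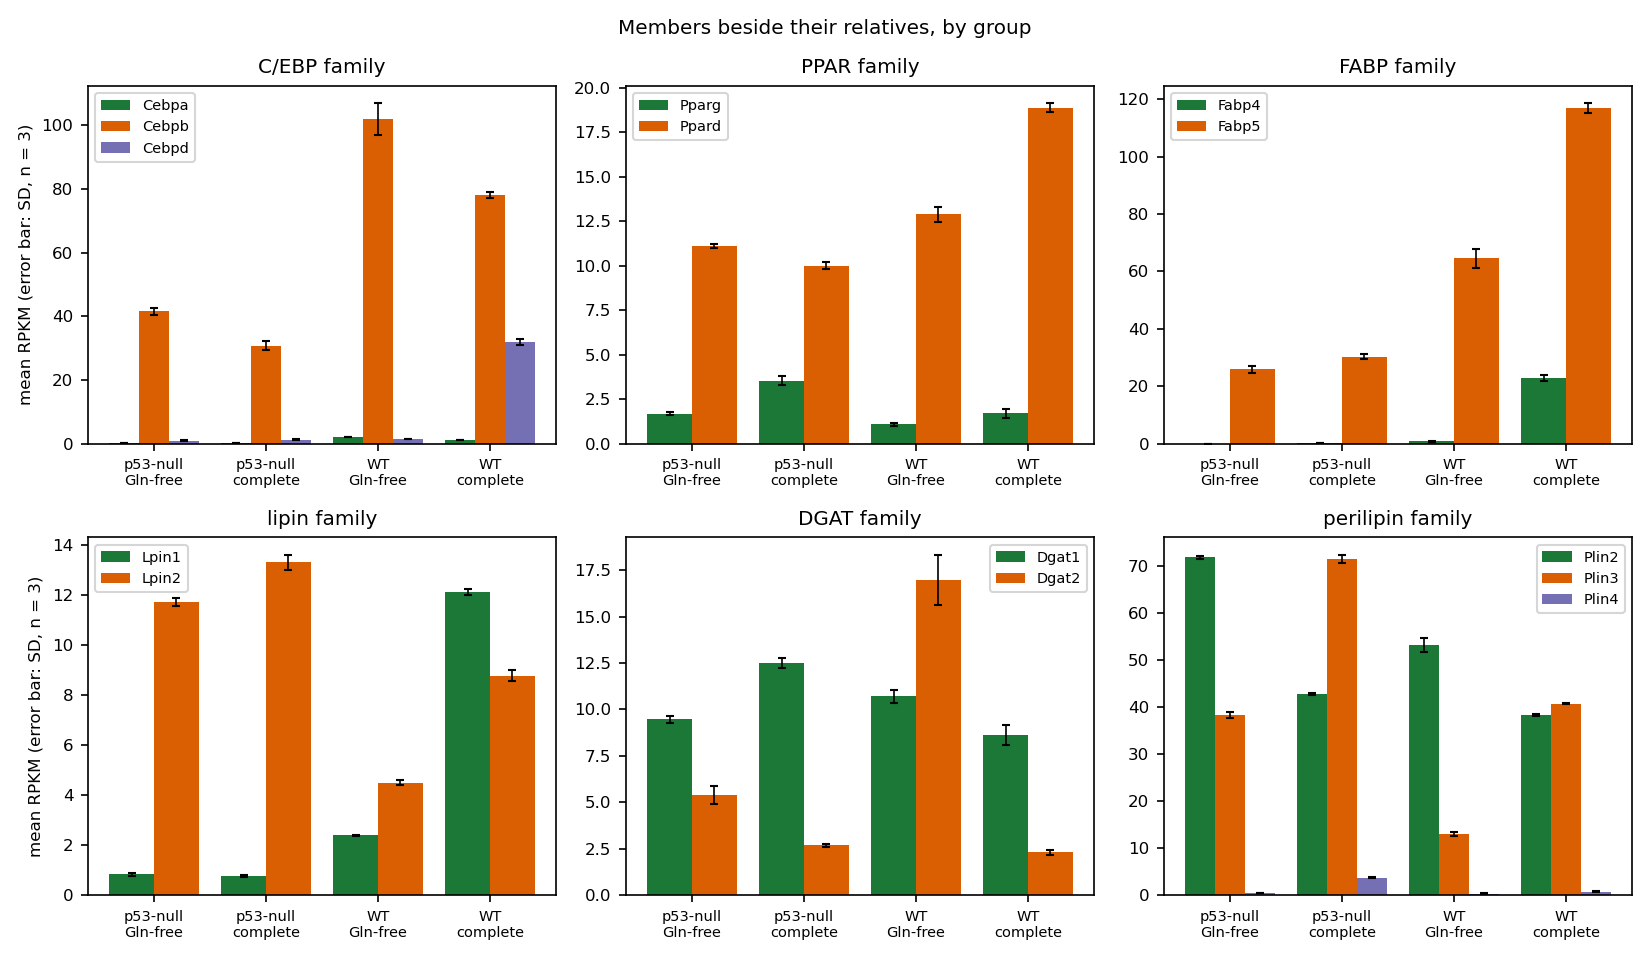
Mean RPKM (vertical axis, from 0) of the members and their relatives in the 4 groups, with the SD of 3 libraries as error bar. Cebpb exceeds Cebpa and Cebpd in every group, Dgat2 exceeds Dgat1 in WT cells without glutamine only (17.0 against 10.7 RPKM), and Plin2 exceeds Plin3 in both glutamine-free groups.

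The libraries did not carry the profile of mature adipocytes. Of 19 markers of mature adipocytes, 4 passed the filter (Acsl1, Agt, Lipe and Plin4). The summed level of all 19 was 7.04 to 7.21 RPKM in p53-null cells without glutamine, 8.85 to 9.06 RPKM in p53-null cells with glutamine, 12 to 12.5 RPKM in WT cells without glutamine and 13.2 to 14.6 RPKM in WT cells in complete medium. Acsl1, an acyl-CoA synthetase gene that many tissues express, averaged 5.37, 3.61, 10.6 and 9.47 RPKM in these 4 groups in the same order. In p53-null cells with glutamine Plin4, at 3.71 RPKM, stood beside it. The hormone genes Adipoq and Lep averaged at most 0.0124 and 0.00218 RPKM in any group, and the droplet coat gene Plin1 at most 0.00847 RPKM. In WT cells in complete medium, where Fabp4 and Cebpd were highest, 9 of the 19 were listed at 0 in all 3 libraries. Lipe and Agt were also highest in that group, at 2.18 and 1.25 RPKM. Fibroblast markers were present, with 8 of 10 at 1 RPKM or more in every group, while Thy1 and Fap averaged at most 0.339 and 0.00293 RPKM.

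Most tested markers of preadipocytes fell in both lines, as Cebpd did, and Fabp4 fell beside them in WT cells. Of 6 tested preadipocyte markers, all 6 fell in p53-null and 5 in WT cells, with none called higher and a median log2 change of -0.58 and -2.25. Among all tested genes 50.0% were called higher and 32.0% lower in p53-null cells, and 46.0% and 44.0% in WT cells. The rest of the 11 listed markers did not pass the filter. Among those, Pi16 was higher in WT cells without glutamine than in complete medium (0.353 against 0.0183 RPKM). Cd34 and Icam1 were lower there (0.0427 against 0.163 and 0.0158 against 0.189 RPKM). Pdgfra, a receptor gene of fat cell precursors, averaged 5.07 RPKM in WT cells without glutamine and 34.0 RPKM in complete medium. Dlk1, which encodes an inhibitor of adipocyte differentiation that precursors express, averaged 6.25 ± 0.127 RPKM in WT cells without glutamine and 37.1 ± 0.487 RPKM in complete medium. Dlk1 fell in p53-null cells by a log2 change of -0.41 ± 0.022 and in WT cells by -2.40 ± 0.022 (adjusted p = 1.8e-09 and 2.5e-17). The fibroblast list moved beside them, with 7 of 8 tested members lower and 1 higher (Fn1, 0.05, and -0.06 with median centring) in p53-null cells and all 8 lower in WT cells. The part of these marker changes in the falls of Fabp4, Cebpd and Lpin1 was not tested. Of 4 muscle markers found, Des alone passed the filter, at 1.18 RPKM in p53-null cells without glutamine and 0.0113 RPKM in WT cells without glutamine.

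**Figure D4:**
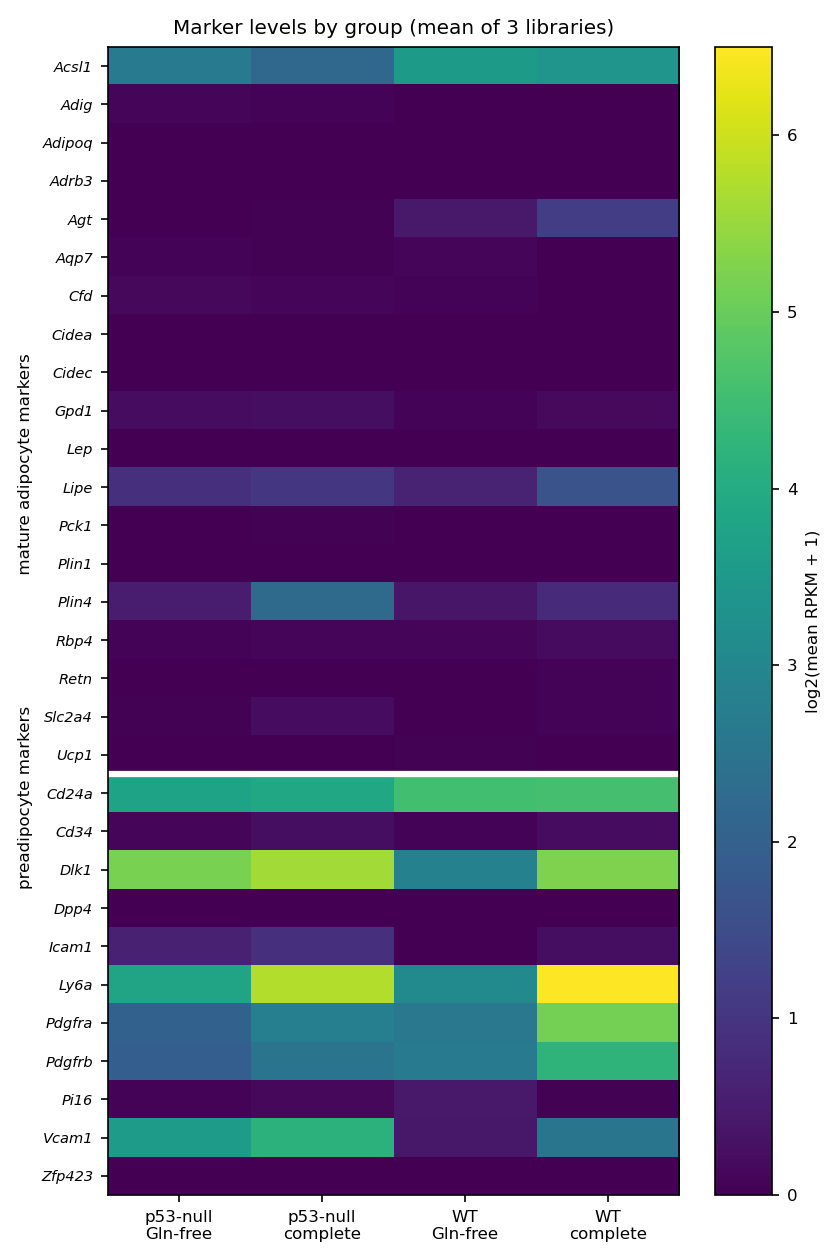
Group means of 19 mature adipocyte markers (above the white line) and 11 preadipocyte markers (below it) as log2(mean RPKM + 1), in colour, for the 4 groups. Most adipocyte markers stay near 0, while Ly6a, Dlk1 and Pdgfra are brightest in complete medium within each line.

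Further genes of the same processes, taken from lists of textbook members, went both ways in most lists. Among all tested genes 50.0% were called higher and 32.0% lower in p53-null cells, and 46.0% and 44.0% in WT cells. The list counts are descriptions to be read beside these shares. Among adipogenic regulators 6 rose and 5 fell of 14 tested in p53-null cells, and 7 rose and 7 fell in WT cells, with Klf4 raised by 1.48 ± 0.020 and Stat5a lowered by -1.92 ± 0.039 in WT cells on the log2 scale (adjusted p = 5.9e-16 and 3.0e-14). Among inhibitors of adipogenesis 8 rose and 5 fell of 14 in p53-null cells, and 5 rose and 9 fell in WT cells. Ddit3, which encodes CHOP, a C/EBP relative that blocks C/EBP binding, rose in both lines, by 1.08 ± 0.022 in p53-null and 2.78 ± 0.022 in WT cells (adjusted p = 2.7e-13 and 6.2e-18). Klf2, an inhibitor of Pparg transcription, fell by -1.45 ± 0.077 in p53-null cells (adjusted p = 1.3e-09), where Pparg fell too.

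The lists of lipid handling can be set beside Lpl, Lpin1, Dgat1, Plin2 and Pnpla2. The same shares apply, 50.0% of all tested genes higher and 32.0% lower in p53-null cells, and 46.0% and 44.0% in WT cells. Fatty acid uptake and activation genes rose in 3 and fell in 6 of 12 in p53-null cells, and rose in 4 and fell in 6 in WT cells. The lipoprotein receptor gene Vldlr was up by 0.47 ± 0.019 and 2.08 ± 0.019 (adjusted p = 9.0e-11 and 2.0e-17). Cav1, of the same list, fell by -0.29 ± 0.017 in p53-null and -2.73 ± 0.017 in WT cells (adjusted p = 3.7e-09 and 7.9e-19). Triglyceride synthesis genes rose in 7 and fell in 4 of 11 in each line. Among them Agpat9, a glycerol phosphate acyltransferase gene, rose by 1.91 ± 0.036 in WT cells (adjusted p = 1.3e-14), where Lpin1 and Agpat4 (-1.82 ± 0.045, adjusted p = 1.9e-13) fell. Triglyceride breakdown genes rose in 2 and fell in 4 of 6 in each line. Hilpda, which encodes an inhibitor of ATGL, rose by 0.67 ± 0.046 in p53-null and 1.05 ± 0.046 in WT cells (adjusted p = 1.6e-08 and 7.1e-11), as did Pnpla2. Abhd5, the gene of the ATGL activator, fell by -1.28 ± 0.021 in WT cells (adjusted p = 3.8e-15). Lipid droplet protein genes rose in 4 and fell in 3 of 9 in p53-null cells, and rose in 4 and fell in 4 in WT cells. Fatty acid oxidation genes fell in 13 and rose in 1 of 17 in p53-null cells, and fell in 16 with none called higher in WT cells, with medians of -0.35 and -0.85. The 1 that rose was Ppard (0.14, and 0.02 with quantile normalization, adjusted p = 0.34). Cpt1a, which admits fatty acids to mitochondria, fell by -0.82 ± 0.044 in p53-null and -2.28 ± 0.044 in WT cells (adjusted p = 1.9e-09 and 1.9e-14).

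**Figure D5:**
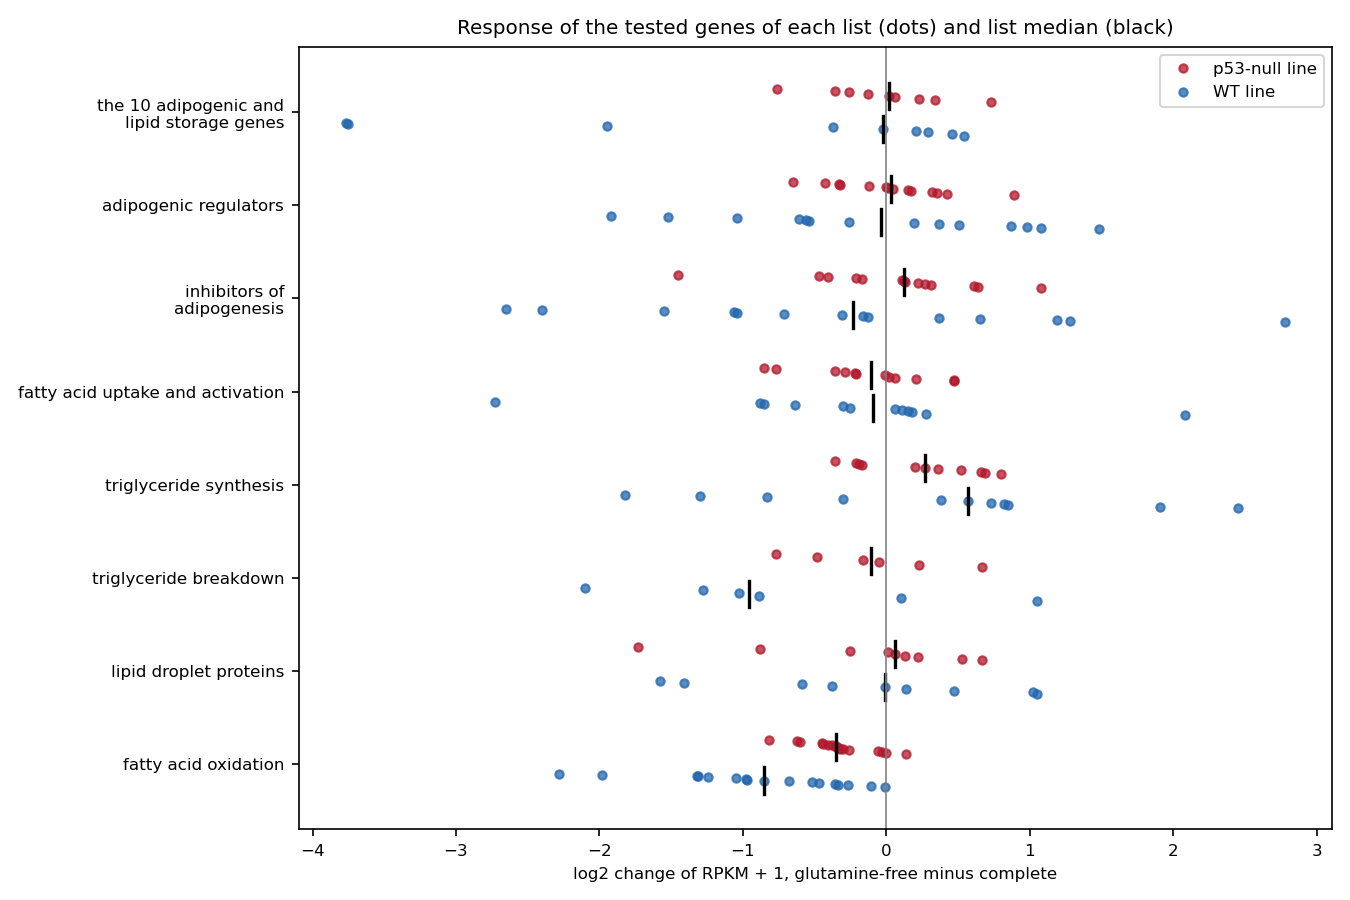
Log2 change of RPKM + 1, glutamine-free minus complete, of the tested genes of 8 lists (dots), for the p53-null line above the WT line in each row, with the median in black. The medians of the fatty acid oxidation genes, -0.35 and -0.85, lie left of 0, while those of the 9 tested adipogenic and lipid storage genes, 0.02 and -0.02, lie close to it.

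The genes whose profile over the 12 libraries was most like that of a member were sought among 5525 tested genes whose group means spanned at least 1 on the log2 scale. These values of Pearson's r are descriptions, since the 12 libraries fall into 4 groups and r follows the group means. H6pd and Ccbe1 were nearest to Fabp4 (r = 0.9991 and 0.9990). Rnf150 and Hacd4 were nearest to Cebpd (0.9994 and 0.9990), and Wnt5a and Mef2c to Lpin1 (0.9995 and 0.9994). Klf2 and Ptn were nearest to Pparg (0.9894 and 0.9852), Zic5 and Glt1d1 to Cebpa (0.9981 and 0.9977), and Grb10 to Lpl (0.9998) after Krt18. Mgea5 and Mafk were nearest to Plin2 (0.9976 and 0.9955), Ankrd54 and Pim3 to Pnpla2 (0.9816 and 0.9745), and Ftl1 and Tppp3 to Dgat1 (0.9629 and 0.9376). Dgat1 and Pnpla2 spanned 0.49 and 0.38 on the log2 scale over the 4 groups, against 4.57 for Fabp4, 4.51 for Lpl and 4.15 for Cebpd.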

How the data were processed

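RNA sequencing libraries (TruSeq RNA V2, 0.5 ug of total RNA per sample) were made from 12 samples. The authors deposited 1 RPKM value per gene and sample. CASAVA 1.8, HISAT2 2.0.4, Partek and the build mm10 are named in the submitters' processing notes, with no order; annotation and counting rules are, in the sources used here, not given. RPKM keeps no read count, and a few genes with many reads lower all other values.

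Values were transformed as log2(RPKM + 1). Genes that reached 1 RPKM in 3 or more libraries were fitted with limma 3.58.1 in R 4.3.3 on 4 group means with a variance trend, with Benjamini-Hochberg adjustment in each comparison and a threshold of 0.05. The comparisons were withdrawal in each line, p53-null against WT in each medium, and the difference of the responses. The fit was tested on simulated data with independent noise in each library. Such data cannot show whether the real libraries of a group are independent. The members and lists were chosen with earlier results of these data known. Genes named beside the members come from the called genes above 2 RPKM in either group mean, the 2 that rose most and the 2 that fell most per list and comparison. Lpin2 and Spidr, genes set beside another comparison, and markers cited at low levels are outside the rule, picked with their values known. Gpihbp1, Ces1d, Adgre1, Tyrobp, Tie1, Myod1 and Myf5 were not analysed here.

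Alternatives were a pseudocount of 0.1, no filter, a filter on the mean, quantile normalization, rescaling to one sum, median centring, the compared groups alone, a replicate block, no trend, and leaving out each library.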

Additional observations from a re-analysis of the deposited data

Results flagged for a closer look

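For all 9 tested genes the response to glutamine withdrawal differed between the lines by the test of the difference itself (limma, adjusted p under 0.05), as it did for 84.9% of all tested genes. The difference, p53-null minus WT on the log2 scale, was 3.63 ± 0.11 for Fabp4 (SE, adjusted p = 3.4e-12), 3.49 for Cebpd and 2.01 ± 0.042 for Lpin1 (adjusted p = 1.9e-13), all of which fell by more than 2-fold in WT cells. It was -0.65 for Dgat1, which moved in opposite directions, -0.53 ± 0.066 for Cebpa (adjusted p = 7.0e-06) and -0.39 ± 0.09 for Pparg (adjusted p = 0.0014). It was 0.27 for Plin2, 0.25 ± 0.039 for Lpl (adjusted p = 5.6e-05) and 0.13 for Pnpla2. Lpl was at or near 0 in all WT libraries, and Fabp4 and Cebpa were under 0.16 RPKM in all p53-null libraries, so their differences rest on 1 line. Fabp4 and Cebpa also passed the filter only with the WT group in which each was higher. Groups of 3 libraries are too small for a test of single outlying libraries.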

How the results depend on the processing

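Each of 45 log2 changes (9 genes in 5 comparisons) was recomputed under 9 other settings, the groups-alone fit not for the difference of responses, and without each of the 12 libraries. Of 931 values, 913 kept their direction and their side of the threshold, 11 became called, 4 lost a call and 3 changed sign. The changes of sign were in values that had not been called: Cebpa (-0.09) and Lpin1 (-0.05) in p53-null cells with median centring, and Pnpla2 between the lines in glutamine-free medium with one sum (0.09, adjusted p = 0.0087). Lost calls are given beside Pparg, Dgat1 and Pnpla2, and no call was lost on leaving out a library. Pnpla2 became called between the lines in glutamine-free medium with quantile normalization (-0.20), median centring (-0.18) and without WT glutamine-free replicate 1 (-0.07). With the filter on the mean, Cebpa was not tested. Rescaling to one sum moved the median difference of all genes between the lines in glutamine-free medium to 0.23, against 0.10. Equal replicate numbers did not deviate together (r = -0.106 to 0.088 over 18 pairs), and with a replicate block the counts for the members stayed at 3 higher and 3 lower in p53-null and 4 higher and 4 lower in WT cells. Depth is only estimated, so differences among values under about 0.1 RPKM (Cd36, Lpl in WT, Fabp4 in p53-null cells) are limited by few reads.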
